A study of Mus musculus with 6 samples.

Results

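The genes described here are 46 transcription factors, outside the HOX clusters, that pattern the limb, the face and the mesoderm of the embryo. They were taken by name from a fixed list of T-box, homeodomain, odd-skipped, Iroquois, forkhead, basic helix-loop-helix and GATA genes, and all 46 were found among the 56953 gene identifiers of the deposited expression table. The rule that picks them uses names and no measured value, although the list was drawn up with earlier results of these data known. The RNA came from cultured mouse embryonic fibroblasts (MEFs) and was read by poly-A selected RNA sequencing. Which parts of the embryo the cells were grown from is not stated in the sources used here.

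There were 2 groups of 3 libraries. The WT group is wild-type MEFs. The other group carries the label GαqKO, and the methods of the study describe these MEFs as lacking both Gαq and Gα11, the G protein subunits that pass signals from many receptors to phospholipase C. Both lines came from another laboratory and were grown in the same serum-containing medium with no treatment. The embryonic stage, the mouse strain, whether a line is 1 clone or a pool, and whether the 3 replicates of a genotype came from separate embryos or from cultures of 1 line are not stated in the sources used here, so each p-value below measures the spread between these libraries only. With 1 line per genotype described, the genotype and the origin of the line cannot be told apart.

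In the embryo, patterning factors tell a cell where it lies. Mesenchyme of the forelimb expresses Tbx5, whereas that of the hindlimb expresses Pitx1 and Tbx4; Prrx1 and Prrx2 mark limb and facial mesenchyme, Dlx and Msx genes act in the jaws and the limb bud, Iroquois genes divide fields into regions, and Gata4, Gata6 and Tbx20 act in the heart and the lateral plate mesoderm. Cultured fibroblasts are known to keep part of such a positional code after they leave the tissue. Meis and Pbx proteins, of the TALE class of homeodomains, bind DNA together with other homeodomain factors and are widely expressed in mesenchyme.

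Patterning factors differed between the groups in both directions. Osr1, Osr2, Irx1, Irx2, Prrx2 and Foxd1 rose over 10-fold in the libraries labelled GαqKO, while Gata4, Gata6, Tbx20, Tbx5 and Lhx2 fell to 3 reads or fewer in each of those libraries. A gene was tested when at least 10 normalized counts were reached in at least 3 libraries, which 34 of the 46 members did. With limma on log2(normalized count + 1), 26 of these 34 members (76.5%) passed both thresholds, an adjusted p under 0.05 and a log2 fold change over 1 or under -1, compared with 20.7% of the 14096 genes tested. Higher levels in the libraries labelled GαqKO were called for 18 members (52.9%; 10.2% of all genes tested) and lower levels for 8 (23.5%; 10.5% of all genes tested). The median log2 fold change of the tested members was 1.04, and that of all genes tested was -0.01. Putting Lhx2, the member listed at 0, at its lower bound left it below the members' median, which therefore could not change (1.04). Without the filter on low values the members' median was 0.52, and by DESeq2 on the reads of 5 libraries 0.63. The median size of the change, whatever its direction, was 1.89 for the members and 0.39 for all genes tested. For 32 tested members the 3 values of a group lay wholly above or below those of the other, a separation that 69.6% of all genes tested also showed; the exceptions were Meis1 and Pbx2. A further 7 members passed the threshold on p but not that on the fold change, and 1, Pbx2, passed neither.

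These shares describe the members that passed the filter and not the whole list. Of the 34, 7 were under 10 normalized counts in every library of 1 group, 6 of them in those labelled GαqKO and 1 in WT. Osr1 and Tbx2 reached 10 in only 1 WT library (10.4 and 11.7). All of these passed only through the group in which they were high, so that they had to differ. At least 10 normalized counts in every library were reached by 25 members, of which 15 were called higher and 2 lower, against 831 higher and 765 lower among 12054 genes passing the same filter.

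**Figure D1:**
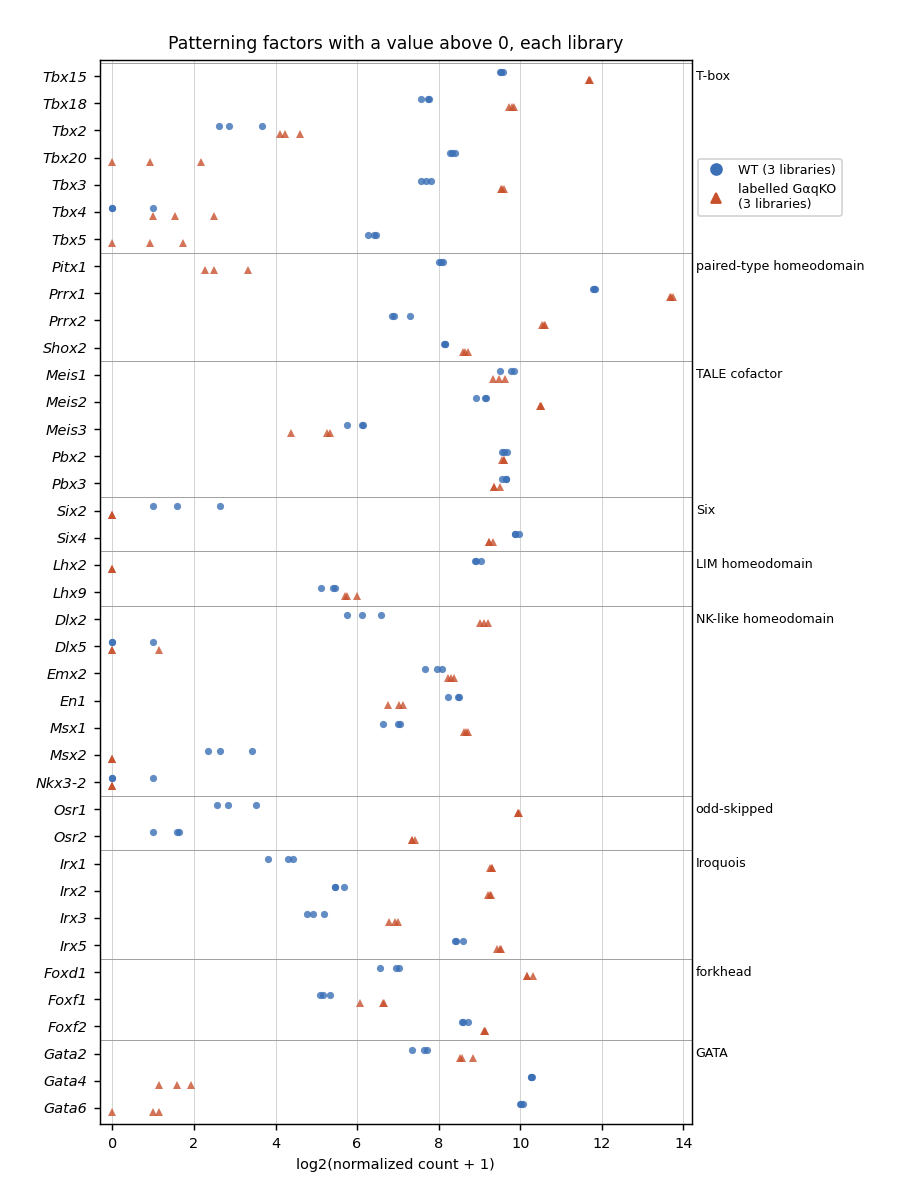
Level of each of the 39 patterning factors with a value above 0, as log2(normalized count + 1) on the x axis, with 1 point per library (WT circles, libraries labelled GαqKO triangles) and families separated by lines. Osr1, Irx1 and Foxd1 show tight groups far apart, with the libraries labelled GαqKO to the right, whereas Gata4, Gata6 and Tbx20 show the opposite order and Pbx2 overlaps.

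The libraries were alike in depth and differed in their cell identity markers. After scaling, each library summed to between 11392429 and 11483486 normalized counts, and 5 libraries held 9853000 to 12229175 reads, recovered from the steps in the scaled values. In the last library, labelled GαqKO replicate 3, 1 read is worth 1.007 normalized counts. Because this is near 1 its total was not used, although dividing by it gave whole numbers for 100% of values, as in the other libraries. Its low values were taken as the nearest whole reads. Intervals on reads cover counting error only. Gnaq, which encodes Gαq, was not lower in the libraries labelled GαqKO (1690.8 ± 48.5 normalized counts in WT and 1926.3 ± 36.0 in the other group; ± is the SD over 3 libraries here and throughout), whereas Gna11 was (2147.9 ± 29.0 against 451.6 ± 28.7). Which exons the knockout removes is not given in the sources used here, so the Gnaq transcript level does not check the genotype label. At the protein level, the study reports that Gαq was lacking in its GαqKO MEFs by Western blot and immunofluorescence. The Y-linked genes Ddx3y, Uty, Eif2s3y and Kdm5d had WT means of 295.5 to 1197.2 normalized counts and were listed at 0 in all libraries labelled GαqKO, so the groups also differ in Y-linked transcripts. Of the fibroblast markers, Vim, Col1a1, Col1a2, Col3a1 and Fn1 were abundant in all 6 libraries, with lower means in the libraries labelled GαqKO. Among these, Col1a1 was lower past both thresholds (16671 to 5774.5). In contrast, Pdgfra (mean 19.6), Dcn (32.1) and Thy1 (0.7) were low in WT and reached 2319.7, 1662.8 and 64.9 normalized counts in the other group.

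Promoters of 3 members with large changes are shown, 250 bases up to the start of each gene's canonical transcript on the strand of the gene. They are those of the 2 largest rises, Osr1 and Osr2, and of Lhx2, the member listed at 0 in all libraries labelled GαqKO, from the GRCm39 genome. Capitals mark a match to either of 2 motifs searched on both strands, AGATAA (bound by GATA factors) and GGTGTGA (bound by T-box factors). The windows are chr12:9624188-9624437 (plus strand) for Osr1, chr15:35295946-35296195 (plus strand) for Osr2 and chr2:38240521-38240770 (plus strand) for Lhx2.
Osr1: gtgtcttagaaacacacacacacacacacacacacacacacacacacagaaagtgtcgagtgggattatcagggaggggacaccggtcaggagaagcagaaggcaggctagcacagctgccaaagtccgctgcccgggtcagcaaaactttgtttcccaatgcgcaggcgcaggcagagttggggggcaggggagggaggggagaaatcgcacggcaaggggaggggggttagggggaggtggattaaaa
Osr2: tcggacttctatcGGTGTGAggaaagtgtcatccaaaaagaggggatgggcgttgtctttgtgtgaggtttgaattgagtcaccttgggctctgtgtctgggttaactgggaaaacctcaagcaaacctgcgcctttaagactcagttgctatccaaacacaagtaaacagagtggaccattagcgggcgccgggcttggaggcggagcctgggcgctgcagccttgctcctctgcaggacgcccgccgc
Lhx2: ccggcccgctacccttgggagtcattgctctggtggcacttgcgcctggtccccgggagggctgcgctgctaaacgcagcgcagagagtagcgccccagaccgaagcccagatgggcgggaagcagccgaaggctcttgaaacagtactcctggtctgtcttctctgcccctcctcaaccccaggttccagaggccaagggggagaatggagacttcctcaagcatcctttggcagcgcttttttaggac
The Osr2 window holds 1 T-box match near its far end, and no match lies in the Osr1 and Lhx2 windows. Among all 46 members, 4 windows (8.7%) held AGATAA and 2 (4.3%) held GGTGTGA, next to 6.8% and 2.8% of the 11801 windows of tested protein-coding genes. The homeodomain motif TAATTA was in 1 member window (2.2%; 2.7% of the tested protein-coding genes) and the TATA box letters TATAAA in 3 (6.5%; 6.9%). The median number of CpG sites per window was 12.0 for the 46 members and 13.0 for the tested protein-coding genes, with 16.5 for the 18 higher members and 11.5 for the 8 lower ones. A match is only a run of letters and was not tested for binding.

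Gata4 and Gata6, zinc finger factors of the heart, gut and lateral plate mesoderm, were abundant in WT and nearly absent in the libraries labelled GαqKO. Gata4 (chromosome 14, 63436362 to 63509141) had 1223.8, 1249.3 and 1229.6 normalized counts in the WT libraries and 2.8, 1.2 and 2.0 in the libraries labelled GαqKO. Gata6 (chromosome 18, 11051565 to 11086995) had 1029.6, 1023.9 and 1063.7 against 0, 1.2 and 1.0. Every WT library thus had both genes at high levels, and every other library had them at 3 reads or fewer. The ratio of WT to the other group, on recovered reads with an exact 95% counting interval, was 601 (276 to 1640) for Gata4, from 3666 and 6 reads, and 1520 (420 to 12500) for Gata6, from 3085 and 2 reads. On the fitted scale the log2 fold changes were -8.73 (SE 0.215, adjusted p = 7.32e-13) and -9.32 (SE 0.280, adjusted p = 4.31e-12). In bulk RNA, fewer cells that express a gene and less RNA per cell cannot be told apart.

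Gata2, the third GATA gene of the list and a factor of blood, vessel and urogenital development, changed in the other direction. Its values were 209.9, 199.1 and 162.9 in WT and 378.4, 364.2 and 455.2 normalized counts in the libraries labelled GαqKO, with no overlap. The log2 fold change was 1.06 (SE 0.115, adjusted p = 2.08e-06), close to the fold threshold: it was 0.96 without WT replicate 3, 0.97 without the library labelled GαqKO replicate 3 and 0.98 by edgeR, each still past the threshold on p. The edgeR fit also leaves out the library labelled GαqKO replicate 3. Summed over the 3 genes, GATA transcripts went from a mean of 2463.8 normalized counts in WT to 402.0.

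Of the 8 T-box genes, 6 were tested, of which 4 were called higher and 2 lower (10.2% and 10.5% of all genes tested). Tbx5, the forelimb and heart factor, had 86.7, 84.5 and 76.3 normalized counts in WT against 0.9, 2.3 and 0. Tbx20, a regulator of heart chambers and valves, had 307.0, 317.7 and 336.9 against 0.9, 3.5 and 0. Both were thus within 4 normalized counts of 0 in all libraries labelled GαqKO. The ratio of WT to the other group was 80.4 (exact 95% counting interval 27.2 to 392; 245 and 3 reads) for Tbx5 and 234 (91.2 to 862; 952 and 4 reads) for Tbx20. Their log2 fold changes were -5.49 (SE 0.432, adjusted p = 8.06e-08) and -7.29 (SE 0.424, adjusted p = 3.42e-09).

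Tbx3, Tbx15 and Tbx18 rose between 3.66- and 4.49-fold. Tbx3, which acts in the limb margins and mammary bud, had 204.7, 222.5 and 189.3 normalized counts in WT and 734.3, 775.8 and 747.2 in the libraries labelled GαqKO (log2 fold change 1.87, SE 0.0787, adjusted p = 1.17e-10). Tbx15, a factor of dermal and skeletal mesenchyme, went from 760.2, 731.5 and 722.7 to 3300.7, 3311.5 and 3339.3 (2.17, SE 0.0449, adjusted p = 1.31e-13). Tbx18, its close relative and a marker of the epicardium and of somite polarity, went from 214.1, 216.6 and 188.3 to 845.1, 923.8 and 887.2 (2.10, SE 0.0775, adjusted p = 3.23e-11). For each of these genes the lowest library labelled GαqKO held over 3 times the highest WT value. Tbx2, the paralog of Tbx3, was low, at 6.3, 11.7 and 5.1 against 17.8, 16.2 and 23.2. Its log2 fold change of 1.27 (SE 0.380, adjusted p = 0.00954) was not called without the library labelled GαqKO replicate 3 (1.13, adjusted p = 0.0503). It was not called by edgeR (adjusted p = 0.0534) or by DESeq2 (adjusted p = 0.246) either, but both of these fits leave out that same library. Of its exon bases, 76.3% lie inside the spans of other annotated genes. Tbx4, the hindlimb factor, was not tested, with 1 read over the WT libraries and 7 over those labelled GαqKO (ratio 7.11, exact 95% counting interval 0.914 to 321). Tbx1, the pharyngeal factor, was listed at 0 in all libraries.

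Pitx1, the homeodomain factor of the hindlimb and of the pituitary, fell 45.7-fold. Its values were 267.3, 255.5 and 273.8 normalized counts in WT and 3.8, 4.6 and 9.1 in the libraries labelled GαqKO, which did not overlap (log2 fold change -5.37, SE 0.270, adjusted p = 7.52e-10). So the forelimb factor Tbx5 and the hindlimb factor Pitx1 were both present in WT and both at a few normalized counts in the other group, and Tbx4 was near 0 in both groups. Of the exon bases of Pitx1 (chromosome 13, 55972864 to 55984005), 54.9% lie inside the spans of other genes.

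Lhx2, a LIM homeodomain factor of limb outgrowth, forebrain and hair follicle, was listed at 0 in all 3 libraries labelled GαqKO. In WT it had 521.0, 477.0 and 481.4 normalized counts. Against a floor of 3 reads per library it was at least 159-fold lower (fitted log2 fold change -8.95, SE 0.262, adjusted p = 3.5e-12). Of its exon bases, 85.7% lie inside the spans of other genes. Its relative Lhx9, which acts with Lhx2 in the limb bud, was low in both groups, between 33.6 and 42.8 in WT and 51.4 and 62.9 in the others (0.50, SE 0.204, adjusted p = 0.0461).

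Odd-skipped zinc finger genes showed the largest rises. Osr1, a factor of the intermediate mesoderm and of limb connective tissue, had 10.4, 4.9 and 6.1 normalized counts in WT and 986.9, 1008.2 and 986.9 in the libraries labelled GαqKO, a 139-fold difference of the means. Osr2, which acts in the palate and the joints, had 2.1, 1.0 and 2.0 against 160.6, 160.7 and 171.2. For both genes all 3 libraries labelled GαqKO stood far above every WT library and close to each other. The log2 fold changes were 6.99 (SE 0.213, adjusted p = 4.77e-12) for Osr1 and 5.96 (SE 0.293, adjusted p = 5.85e-10) for Osr2. On reads the Osr2 ratio was 97.5 (exact 95% counting interval 41.5 to 302; 5 reads in WT and 480 in the other group). Their summed mean went from 8.8 to 1158.2 normalized counts.

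All 4 Iroquois genes of the list were called higher, by different amounts (10.2% of all genes tested were called higher). Irx1 had 18.8, 20.4 and 13.2 normalized counts in WT and 631.0, 616.3 and 627.4 in the libraries labelled GαqKO (log2 fold change 5.10, SE 0.163, adjusted p = 8e-12). Irx2, its neighbour on chromosome 13, went from 42.8, 42.7 and 49.9 to 590.6, 618.6 and 614.3 (3.73, SE 0.112, adjusted p = 4.18e-12). These genes started from different WT levels and reached similar means of 624.9 and 607.8 normalized counts. Irx3, which acts with Irx5 in the proximal limb and the heart, went from 35.5, 26.2 and 29.5 to 108.9, 128.3 and 121.9 (1.95, SE 0.185, adjusted p = 5.64e-07). Irx5 was already at 344.6, 339.0 and 388.8 in WT and reached 691.1, 728.4 and 742.2 (1.01, SE 0.0721, adjusted p = 2.86e-08). No library overlapped for any of the 4, a separation that 69.6% of all genes tested also showed. The Irx5 change sat on the fold threshold, at 0.99, 0.97 and 0.99 without WT replicate 1, WT replicate 2 and the library labelled GαqKO replicate 3, always past the threshold on p, and 53.9% of the exon bases of Irx3 lie inside the spans of other genes.

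Prrx1 and Prrx2, paired-type homeodomain factors of limb and craniofacial mesenchyme, rose together. Prrx1 (chromosome 1, 163041844 to 163142033) was the most abundant member in every library by normalized count, with 3554.4, 3537.9 and 3623.5 in WT and 13717.3, 13137.2 and 13268.6 in the libraries labelled GαqKO (log2 fold change 1.90, SE 0.0387, adjusted p = 1.07e-13). Prrx2 went from 155.6, 115.6 and 119.1 to 1479.0, 1520.5 and 1556.9 (3.55, SE 0.0995, adjusted p = 2.31e-12), an 11.7-fold rise against 3.74-fold for Prrx1. Shox2, which patterns the proximal limb skeleton, differed less, with 283.0, 276.9 and 281.9 against 399.1, 419.7 and 386.7 (0.52, SE 0.0760, adjusted p = 4.11e-05), without overlap and under the fold threshold. Alx1 and Alx4, paired-type factors of the facial mesenchyme, were listed at 0 in all libraries.

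Among the forkhead genes, Foxd1 changed most. Foxd1, known from the stroma of the kidney and from facial mesenchyme, had 129.5, 122.4 and 93.6 normalized counts in WT and 1141.9, 1137.7 and 1272.9 in the libraries labelled GαqKO, a 10.3-fold rise (log2 fold change 3.36, SE 0.110, adjusted p = 9.69e-12). Foxf1, a target of hedgehog signals in visceral mesoderm, had 39.7, 33.0 and 34.6 against 65.7, 99.4 and 98.7 (1.25, SE 0.209, adjusted p = 0.000126). Foxf2, its paralog in gut and palate mesenchyme, went from 418.7, 386.6 and 379.7 to 565.3, 565.4 and 547.8 (0.50, SE 0.0680, adjusted p = 1.86e-05), so all 3 genes passed the threshold on p in the same direction and Foxf2 missed that on the fold.

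The Dlx, Msx, Emx and En homeodomain genes split. Dlx2, a factor of the branchial arches, had 68.9, 52.5 and 95.7 normalized counts in WT and 550.3, 590.8 and 512.6 in the libraries labelled GαqKO (log2 fold change 2.95, SE 0.169, adjusted p = 2.98e-09). Msx1, which acts in tooth, palate and limb mesenchyme downstream of BMP signals, went from 126.3, 132.1 and 98.7 to 391.6, 407.0 and 417.9 (1.77, SE 0.116, adjusted p = 1.2e-08). En1, known from the ventral limb ectoderm and the dorsal dermis, fell from 358.2, 353.6 and 299.2 to 108.0, 138.7 and 129.9 (-1.42, SE 0.120, adjusted p = 1.61e-07). None of these 3 genes overlapped between groups, as was so for 69.6% of all genes tested. Emx2, a factor of the shoulder girdle and urogenital tract, differed by less, at 248.5, 270.1 and 202.6 against 300.5, 314.5 and 328.3 (0.40, SE 0.107, adjusted p = 0.00525). Msx2 was too low to be tested, with 19 reads over the WT libraries and 0 in the others, at least 2.06-fold lower against the floor of 3 reads per library, and all its exon bases (100%) lie inside the span of another gene. Dlx5 had 1 read in each group, Nkx3-2 had 1 read in all, and Dlx1 was listed at 0.

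Of the 5 Meis and Pbx cofactors, 1 rose, 1 fell and 3 stayed under the fold threshold (20.7% of all genes tested passed both thresholds). Meis2 rose, from 572.2, 560.5 and 482.5 normalized counts in WT to 1461.1, 1466.1 and 1433.0 in the libraries labelled GαqKO (log2 fold change 1.43, SE 0.0660, adjusted p = 2.95e-10). Meis1 had 729.9, 869.4 and 920.1 against 783.1, 714.6 and 641.5, which overlap (-0.23, SE 0.0889, adjusted p = 0.0329). Meis3, the lowest of the 3, had 53.3, 69.0 and 70.2 against 37.6, 19.7 and 39.3 (-1.03, SE 0.267, adjusted p = 0.00401). Its fall lay on the fold threshold and was -0.97 without WT replicate 2, -0.96 without WT replicate 3 and -0.71 without the library labelled GαqKO replicate 2. Pbx3 had 800.9, 808.2 and 755.2 against 648.9, 720.3 and 656.6, without overlap and with a small change (-0.22, SE 0.0617, adjusted p = 0.00578). Pbx2 was the member with the smallest change, at 744.5, 811.1 and 774.6 against 770.0, 748.1 and 770.4 (-0.03, SE 0.0564, adjusted p = 0.709). Summed, the 5 Meis and Pbx members had a mean of 3007.2 in WT and 3636.8 in the other group.

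Six4, a homeodomain factor of muscle and kidney precursors, was lower without reaching the fold threshold, with 942.9, 992.8 and 932.3 normalized counts in WT against 639.5, 603.6 and 599.2 (log2 fold change -0.64, SE 0.0570, adjusted p = 2.94e-07). Six2, the nephron progenitor factor, had 8 reads over the WT libraries and 0 in the others, and at that depth no fold can be given. The basic helix-loop-helix genes Hand1, Hand2 and Tcf21, of heart, limb and visceral mesoderm, were listed at 0 in all libraries. In total 7 members were listed at 0 everywhere, and 5 of these (Alx4, Tcf21, Dlx1, Hand1, Hand2) have at least 90% of their exon bases inside the spans of other annotated genes. Across the 2006 protein-coding genes wholly inside other spans, 65.9% were listed at 0, as were 29.8% of the 8769 without any such overlap, so a listing at 0 is not read here as absence of the transcript.

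**Figure D2:**
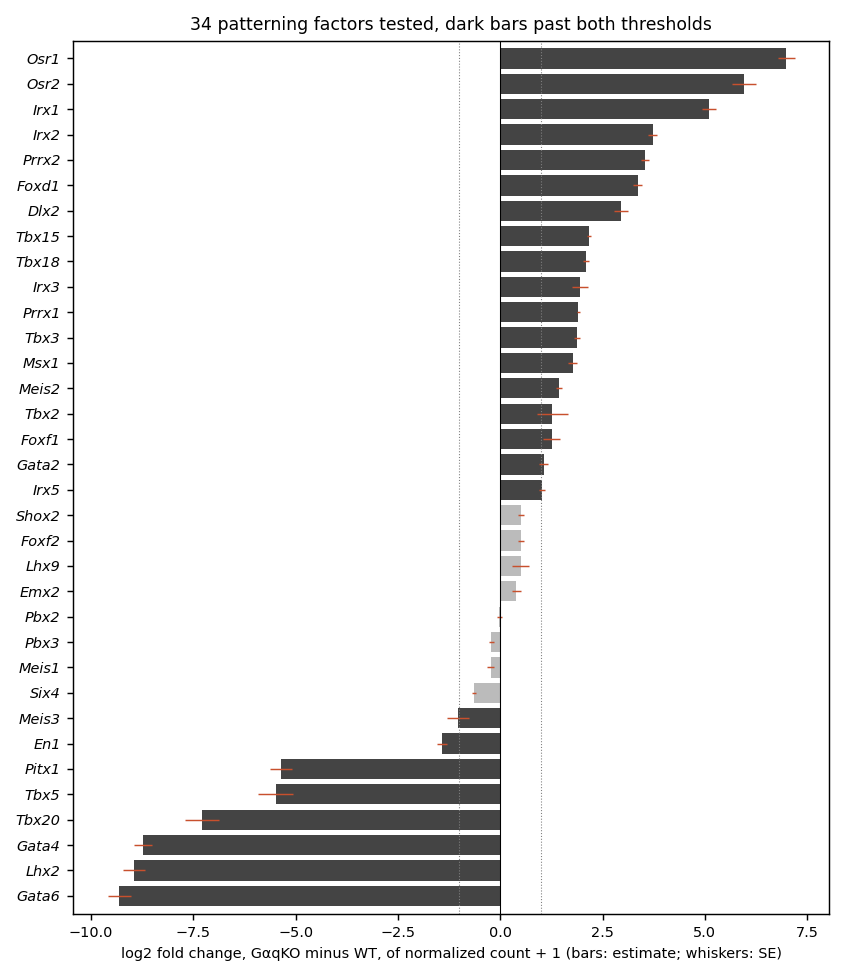
Log2 fold change of the 34 tested patterning factors, libraries labelled GαqKO minus WT, on log2(normalized count + 1) with limma; bars are the estimates, whiskers the SE, dotted lines the fold thresholds of 1 and -1, and dark bars genes past both thresholds. The estimates run from 6.99 for Osr1 to -9.32 for Gata6, and Pbx2 lies at -0.03.

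Levels were set against each other per kb of exon, since longer genes collect more reads. In WT, Gata4 (216.9 normalized counts per kb), Prrx1 (215.8) and Pbx2 (210.6) headed the list, followed by Tbx15 (137.7), En1 (126.5) and Irx5 (114.3). In the libraries labelled GαqKO the order was Prrx1 (808.1), Tbx15 (619.0), Prrx2 (296.8), Irx1 (238.0), Foxd1 (233.8) and Irx5 (230.4). Prrx1, Tbx15 and Irx5 were thus among the first 6 in both groups, whereas Gata4 was at 0.35 per kb in the libraries labelled GαqKO and Irx1 at 6.66 in WT. The normalized counts of all 46 members summed to between 14423.7 and 14669.7 in the WT libraries and between 31327.1 and 31577.5 in the others. Prrx1 alone made up 24.1 to 25.1% of that sum in WT and 41.9 to 43.4% in the libraries labelled GαqKO; without it the sums were 10800.2 to 11131.8 and 17860.2 to 18189.9.

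**Figure D3:**
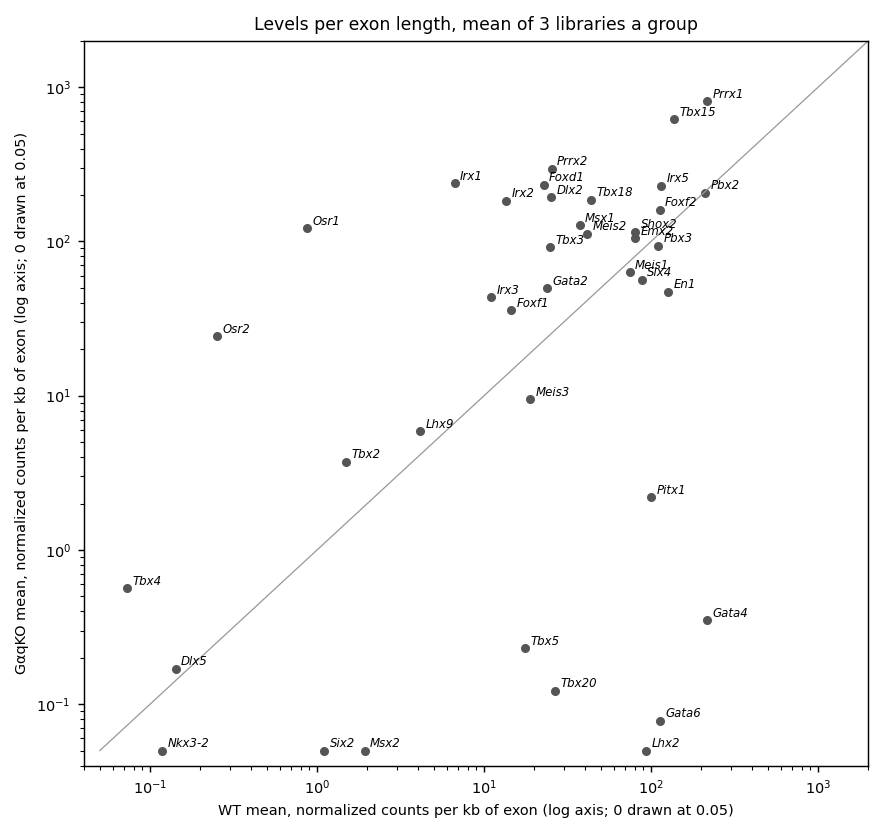
Mean level per kb of exon in WT (x axis) against that in the libraries labelled GαqKO (y axis), both in normalized counts per kb on log axes with 0 drawn at 0.05; each point is a member with a value above 0 and the line marks equal levels. Osr1, Osr2 and Irx1 lie far above the line, Gata4, Gata6, Tbx20 and Lhx2 far below it, and Pbx2 (210.6 and 206.8) on it.

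Several members sit next to related genes on their chromosomes. Tbx3 and Tbx5 lie 164.0 kb apart on chromosome 5 and changed in opposite directions (log2 fold change 1.87 and -5.49); in WT the Tbx3 to Tbx5 ratio of normalized counts was 2.36, 2.63 and 2.48. Irx1 and Irx2 (665.1 kb apart on chromosome 13) both rose, as did Irx3 and Irx5 (555.6 kb apart on chromosome 8). Around Foxf1 on chromosome 8, the long non-coding RNA Fendrr, on the opposite strand with its start 1.3 kb away, went from 8.4, 3.9 and 6.1 to 94.8, 93.7 and 132.9 normalized counts (3.96, SE 0.297, adjusted p = 5.02e-08). Further along the same locus, Foxc2 went from a mean of 37.4 to 344.2 (3.17) and Foxl1 from 7.5 to 92.8 (3.60). These 4 genes of the locus therefore rose, Foxf1 by the least on the log2 scale (1.25); other genes there were not looked up. The Foxf2 and Foxc1 pair on chromosome 13 differed in the same direction by less (0.50 and 0.75).

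The Dlx genes, which lie in the genome as pairs, did not move as 1 family. Dlx2 rose, and its partner Dlx1 was listed at 0 in all libraries. At the pair of Dlx5 and Dlx6, both at or near 0 reads, the non-coding RNA Dlx6os1 went from 4.2, 2.9 and 2.0 normalized counts in WT to 131.5, 130.7 and 141.0 in the libraries labelled GαqKO (5.10, SE 0.286, adjusted p = 2.3e-09). At the third pair, Dlx3 went from a mean of 255.5 to 1.0 (-7.12) and Dlx4 from 104.1 to 8.3 (-3.50). The library kit keeps strand, but whether the counting used it is not stated. Without strand, reads of overlapping genes on opposite strands cannot be told apart: 8 tested members (Tbx18, Tbx3, Meis1, Emx2, Shox2, Tbx2, Gata6 and Gata2) have between 11.5 and 21.0% of their exon bases over exons of a gene on the opposite strand. Emx2os, antisense to Emx2, differed in the same direction as Emx2 (means 90.5 and 125.2; 0.46, adjusted p = 0.0153), and Irx3os in that of Irx3 (5.4 and 20.7; 2.01, adjusted p = 0.00514).

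**Figure D4:**
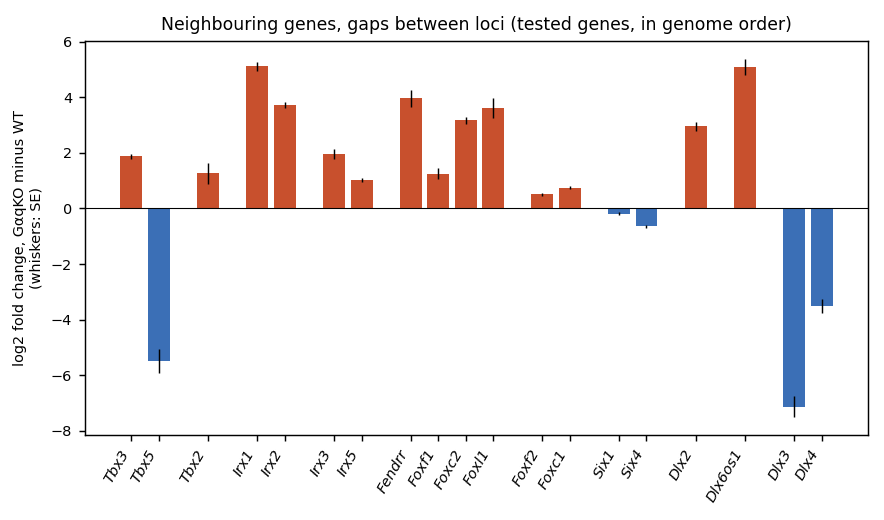
Log2 fold change (libraries labelled GαqKO minus WT, limma; whiskers are the SE) of the tested members and their neighbours in genome order, with a gap between loci. Tbx3 (1.87) and its neighbour Tbx5 (-5.49) point in opposite directions, while the bars of the Irx pairs and of the 4 genes drawn at the Foxf1 locus are all above 0 and those of Dlx3 and Dlx4 below it.

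A list of 82 further genes of the same families and of their cofactors was examined beside the members. Of these, 37 passed the filter on low values, 7 were called higher and 11 lower (48.6% past the thresholds; 20.7% of all genes tested), with a median log2 fold change of 0.005 and a median size of 0.93. Among the lower genes, Gata3, a relative of the 3 GATA members, went from a mean of 256.3 normalized counts to 44.8 (-2.51). Zfpm1, a GATA cofactor, went from 708.8 to 135.4 (-2.38), while its paralog Zfpm2 differed in the other direction under the fold threshold (0.47). Pbx4 (143.0 to 33.0; -2.08) fell past both thresholds, which Pbx2 and Pbx3 did not. Isl2, a LIM homeodomain gene, fell too (234.5 to 59.8; -1.96).

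The Eya coactivators, which bind Six4 and its relatives, split, and genes known from the face went in both directions. Eya2 went from a mean of 15.5 to 393.4 normalized counts (4.59) and Eya1 from 61.6 to 149.9 (1.27), whereas Eya3, more abundant, was lower under the fold threshold (-0.72) and Eya4 passed neither threshold (0.09, adjusted p = 0.162). Pax9, a factor of teeth and pharyngeal pouches, went from 9.0 to 338.1 (5.10), and Tfap2a, a neural crest and facial factor, from 16.1 to 399.1 (4.66). Dlx3 (-7.12) and Dlx4 (-3.50), also on this list and from a family that acts in the jaws, fell. Twist2, a dermal basic helix-loop-helix factor, went from 593.7 to 1831.2 (1.62), next to its paralog Twist1 at 0.93. Called genes with means under 100 normalized counts in both groups were Foxl1 among the higher and Foxd2, Lhx1 and Pknox2 among the lower.

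Markers of several cell types also differed between the groups. Among all genes tested, 10.2% were called higher and 10.5% lower. Of 4 mesothelium markers, all tested, 3 fell and none rose, and their summed level was 2374.7 to 2549.9 normalized counts in WT and 730.5 to 765.4 in the other group. Wt1, Upk3b and Krt19 had WT means of 737.8, 308.2 and 546.6 and were at 1.4, 0 and 4.5, while Msln stayed abundant (887.9 and 744.5). Of 6 epithelium markers, 2 were tested and both were lower, Krt14 (258.0 to 1.1) and Cdh1 (238.2 to 8.0), with sums of 515.1 to 540.8 and 10.0 to 23.2. Of 4 heart muscle markers, Tnnt2 alone was tested and was lower (753.0 to 6.5), the other 3 (Nkx2-5, Myh6, Actn2) being at or under 3 reads per library in both groups, with sums of 724.7 to 801.1 and 6.5 to 11.1. Of 10 fibroblast markers, 9 were tested, 3 were higher (Pdgfra, Dcn, Thy1) and 1 lower (Col1a1, 16671.0 to 5774.5), with sums of 84228.3 to 89977.7 and 62441.8 to 65644.4. No marker of endothelium (4 listed), leukocytes (4), skeletal muscle (5), cartilage and bone (6) or neural crest and glia (4) was called, and of 3 pluripotency markers Nanog was lower (17.8 to 6.5). The part of these marker differences in the changes of Gata4, Gata6, Tbx20, Tbx5, Pitx1 and Lhx2, or in those of the members that rose, was not tested.

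**Figure D5:**
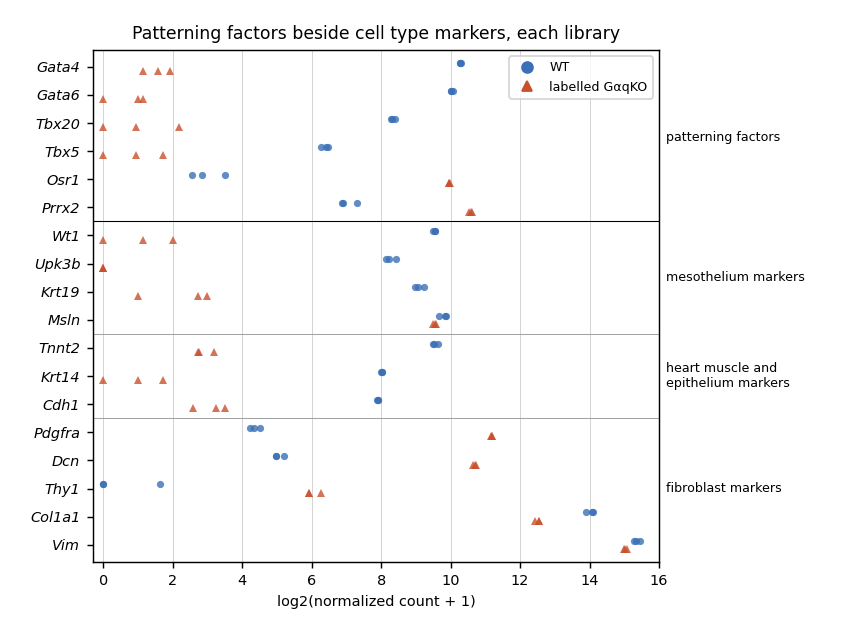
Level of 6 patterning factors and of cell type markers in each library, as log2(normalized count + 1), with 1 point per library (WT circles, libraries labelled GαqKO triangles). Gata4, Gata6, Tbx20 and Tbx5 are high in the same 3 WT libraries as Wt1, Upk3b, Krt19, Tnnt2, Krt14 and Cdh1. Osr1 and Prrx2 are high in the same 3 libraries as Pdgfra, Dcn and Thy1. With only 2 groups, genes that separate them share the same libraries by design, and 69.6% of all genes tested separate them. The other markers drawn, Msln, Col1a1 and Vim, are high in all libraries, with lower means in those labelled GαqKO.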

How the data were processed

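Libraries of poly-A selected RNA from WT MEFs and MEFs labelled GαqKO (3 each) were sequenced as paired reads. Per the labels and the methods of the study, the authors aligned reads to GRCm39 with Rbowtie2, obtained gene counts with featureCounts and GENCODE M32 and used DESeq2; the tool versions are not given in the sources used here. The deposited values are signal on the scale of DESeq2-normalized counts, that is, the authors divided the counts by library size factors. Dividing by the value of 1 read gave whole numbers (tolerance 0.01) for 100% of values.

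Genes were named from GENCODE M39 (56310 of 56953 identifiers matched, 98.9%; 643 did not). Genes that reached 10 normalized counts in 3 or more libraries were tested with limma 3.58.1 (R 4.3.3, trended prior) on log2(value + 1), a scale that understates the fold of low genes, with Benjamini-Hochberg adjustment over all 14096 genes. As alternatives, edgeR 4.0.16 and DESeq2 1.42.0 were run on the recovered reads of 5 libraries. The library labelled GαqKO replicate 3 was left out because its value of 1 read is near 1, and fits with it were not run. On simulated data with 200 changed genes in this comparison (13993 genes tested), limma recovered 200 with 2 false calls.

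Replicate libraries were not duplicates: reads of the 4 pairs within a group that could be compared differed beyond sampling noise (chi-square 2.44 to 5.50 per gene). Every member is accounted for; values per library are given for members past the thresholds or reaching a group mean of 100 normalized counts, and further family genes past the thresholds are named at that mean, except for a few items not reported here. The members and lists were chosen with earlier results of these data known. Gene spans and exon overlaps come from GENCODE M39, which is newer than the release the authors counted on.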

Additional observations from a re-analysis of the deposited data

How the results depend on the processing

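None of the 26 called members changed direction under any alternative that could be fitted; Pbx2, which was not called, ranged from -0.06 to 0.01 on the log2 scale with 1 library left out. A minimum of 10 normalized counts set on every library left 2 members called lower, 4 further family genes higher and 6 lower, 831 higher and 765 lower among all genes, and a median member log2 fold change of 1.25; it removes genes near 0 in either group. With no filter 18 members were called higher and 10 lower, next to 1817 and 1825 among all genes, and the member median was 0.52. With DESeq2 on recovered reads of 5 libraries that median was 0.63. Both of these fits include members near 0 in both groups. A limma test against a log2 fold change of 1 itself called 847 genes higher. Leaving out 1 library at a time gave 15 to 18 members higher and 7 to 8 lower, 7 to 8 further family genes higher and 11 to 12 lower, 1426 to 1545 genes higher and 1492 to 1603 lower, and a member median of 0.98 to 1.07. The same replicate numbers in both groups did not pair the libraries (correlations of deviations -0.05, -0.15 and -0.06); with the number as a replicate block, 18 members were higher and 8 lower, 7 further family genes higher and 11 lower, 1421 genes higher and 1478 lower, with a median of 1.04. By edgeR 16 members were higher and 8 lower, next to 1460 and 1554 among all genes. By DESeq2 15 were higher and 9 lower, next to 1333 and 1502. Both fits leave out the library labelled GαqKO replicate 3. An alternative chosen after seeing the data, counting only members with at most 50% of their exon bases inside other gene spans, left 16 higher and 6 lower. All genes were not counted in that way. Scaling by TMM moved the median of all genes from -0.012 to -0.003. Tbx2, Meis3, Irx5, Foxf1 and Gata2 lost a call under some alternative, all 5 of them under the test against a log2 fold change of 1; the cause was not tested. Depth limits the 5 members with a few reads, which the filter kept out of the test.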
